A study of Mus musculus with 18 samples.

Results

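The 33 genes described here encode channels, pumps, solute carriers, carbonic anhydrases, junction proteins and linked carrier, chaperone and scaffold proteins. With such proteins the retinal pigment epithelium (RPE) moves ions, water and nutrients. The genes were chosen by name and known role, with earlier results of these data known. Each is a line of both deposited expression tables whose gene name equals a name on the list. All 33 were tested, among 19711 genes of the first table and 18648 of the second. The values come from bulk polyA RNA sequencing of RPE taken directly from untreated mice at postnatal day 25, 1 h after light onset. The first table holds 6 libraries of C57BL/6 mice (genotype C57BL/6J), 3 labelled Tyro3-/-V1 and 3 labelled Mertk-/-V2Tyro3-/-V2, which carry deletions of the receptor tyrosine kinase genes Tyro3 alone or Mertk and Tyro3. The second table, normalized separately, holds 3 libraries of WT129 mice and 3 of mice labelled Itgb5-/-, which lack an integrin subunit gene. The labels call the libraries biological replicates and give neither the number of animals behind each nor what V1 and V2 stand for. C57BL/6 replicates 1 to 3 and all mutant libraries of the first table carry the mark 23 in their sample names, and C57BL/6 replicates 4 to 6 do not. The labels do not say what the mark means.

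The RPE is a single sheet of pigmented cells between the photoreceptors and the choroidal blood supply. Its tight junctions close the path between cells, so that glucose, lactate, ions, water and retinoids must cross the cell through transporters placed on its apical or basal face. It exports the lactate and water that the retina produces, sets the potassium level around the photoreceptors, and engulfs the outer segment tips that they shed each morning. Mertk, Tyro3 and the integrin made with the Itgb5 product act in that engulfment.

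Values are normalized counts, the authors' read counts divided by 1 size factor per library, and the libraries held 14135502 to 30401422 reads. Log2 fold changes come from limma on log2(normalized count + 1), and a gene is said to have risen or fallen only at a Benjamini-Hochberg adjusted p under 0.05 over all genes tested. Against C57BL/6 the fold change rests on the 3 marked libraries, with the spread taken from all 12. All 10 RPE markers listed for the check of the tissue were detected in every library, with summed levels of 288602 to 685587. Markers of rods and of other retinal cells were detected in every library as well, with summed rod levels of 29534 to 408629. Libraries of 1 group could stand far apart: the first principal component of the first table held 47.3% of the variance, with C57BL/6 replicate 1 (score -75.1) and Mertk-/-V2Tyro3-/-V2 replicate 3 (95) at its ends, and WT129 replicate 2 (83.4) stood apart in the second table. The check of the targeted genes found lower totals where a deletion of Tyro3 or Itgb5 is labelled. Tyro3 stood at 3398 ± 514 (SD, n = 6) in C57BL/6, 1292 ± 122 (n = 3) in Tyro3-/-V1 and 1705 ± 244 (n = 3) in Mertk-/-V2Tyro3-/-V2 libraries (limma adjusted p = 0.000935 and 0.0101 against C57BL/6). Itgb5 stood at 3622 ± 589 in WT129 and 1199 ± 57.8 in Itgb5-/- libraries (n = 3 each, limma adjusted p = 0.0176). Mertk stood at 3202 ± 454 in C57BL/6 and 3409 ± 631 in Mertk-/-V2Tyro3-/-V2 libraries (log2 fold change -0.06, 95% interval -0.47 to 0.35, limma adjusted p = 0.855), and a gene total does not show a deletion of a few exons, so it checks nothing of that label.

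Levels per kilobase of exon in C57BL/6 spanned from 178000 normalized counts for Ttr, the carrier of thyroid hormone and of the retinol-binding protein, to 11.8 for Best1, the basal calcium-activated chloride channel bestrophin. The highest member of the lactate carriers was Bsg, the chaperone basigin that brings monocarboxylate transporters to the membrane, at 35100 per kilobase. Slc2a1, the glucose transporter of the blood-retina barrier, followed at 9470, and Slc16a8, the basal lactate transporter found in few tissues besides the RPE, at 8350. Ezr, the ezrin that anchors the apical microvilli, led the junction and microvillus genes at 6660. Car14, a carbonic anhydrase of the cell surface, led its group at 5810, and Atp1b1, a beta subunit of the sodium-potassium pump, led the pumps at 5650. Kcnj13, the apical inward rectifier potassium channel, was the highest channel at 2000, and Slc4a2, a chloride-bicarbonate exchanger, led the bicarbonate and chloride group at 1450. Only Cacna1d (56.1), Kcnj10 (42.1), Slc16a3 (35.7) and Best1 lay under 100 per kilobase among the 33. Best1 gave 22 to 42.6 normalized counts in the C57BL/6 libraries, a low level for a gene known as an RPE channel.

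**Figure D1:**
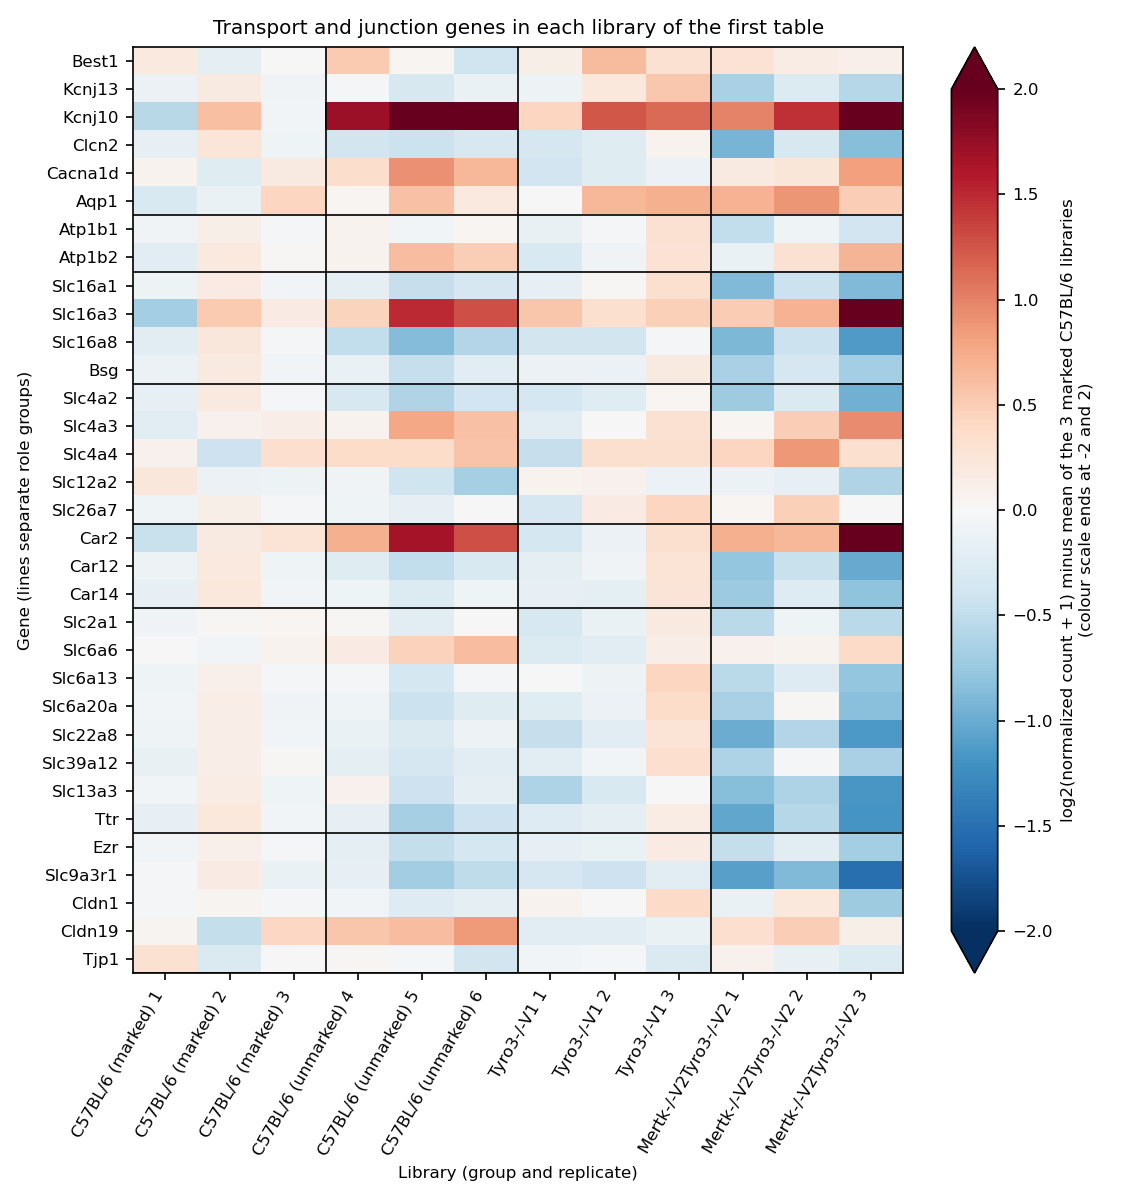
Each row is 1 of the 33 genes, ordered by role, and each column 1 library of the first table; the colour is log2(normalized count + 1) minus the mean of the 3 marked C57BL/6 libraries, red above and blue below, ending at 2 log2 units either way. Apart from Slc6a6 and Slc16a3, the nutrient and lactate carriers are low in Mertk-/-V2Tyro3-/-V2 replicates 1 and 3 and closer to C57BL/6 in replicate 2. Kcnj10, Car2 and Slc16a3 are high in replicate 3 and in the unmarked C57BL/6 libraries.

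The Mertk-/-V2Tyro3-/-V2 libraries were compared with C57BL/6 to ask whether transport genes differ when both receptors are deleted. Of the 33 genes, 1 fell, Slc9a3r1, and none rose, against 0.523% of all genes tested past the same threshold. At an unadjusted p under 0.05, 18 of the 33 were lower and 5 higher, where 8.74% and 13.2% of all genes tested were. The median log2 fold change of the 33 was -0.38, against 0.01 for all genes tested, with 21 genes below 0 and 12 above. Without C57BL/6 replicate 1 and Mertk-/-V2Tyro3-/-V2 replicate 3, 13 were lower and 1 higher at an unadjusted p under 0.05, where 3.71% and 5.66% of all genes tested were, with a median of -0.34 and none of the 33 past the threshold (0.0669% of all genes). Without Mertk-/-V2Tyro3-/-V2 replicate 2, 7 fell (Slc9a3r1, Slc22a8, Ttr, Slc16a8, Slc16a1, Clcn2 and Car12), where 0.684% of all genes tested passed. That library was the highest of its group for 23 of the 33, and 7 was the largest number in the 9 runs that left out 1 library, which gave 0 to 7. edgeR called the same single gene (0.553% of all genes), while DESeq2 called 13 lower and 2 higher, Kcnj10 and Car2, where it called 10.4% of all genes that it tested. The lower genes were mostly carriers of nutrients and lactate: 7 of 8 nutrient and solute carriers and 3 of 4 lactate genes had an unadjusted p under 0.05 and a lower level, with group medians of -0.51 and -0.64. The 8 include Ttr, which carries thyroid hormone and the retinol-binding protein. In a bulk sample, fewer RPE cells and less RNA per RPE cell cannot be told apart. The RPE markers had the same median, -0.38 over 10 genes with 1 called lower, but the list was mixed. Of the 10, 6 were below 0 and 4 above, from -1.53 to 0.62, with 5 lower and 2 higher at an unadjusted p under 0.05. Their summed level was 288602 to 465453 in these libraries and 505456 to 628445 in the marked C57BL/6 libraries. In the unmarked C57BL/6 libraries it was 400318 to 495225, which overlaps the mutant range. Other marker lists differed too. Of 8 microglia and macrophage markers 2 were called higher, with a median of 0.71, while their sum, at 6883 to 9396, was not above the 8952 to 11518 of the marked C57BL/6 libraries. All 8 lens markers had positive log2 fold changes, with a median of 1.56 and none called, and sums of 166209 to 696603 against 53278 to 150792 in the marked and 17215 to 162747 in the unmarked C57BL/6 libraries. All 6 cone and all 8 endothelial markers were also positive (medians 1.52 and 0.74, none called). Of 8 ocular surface markers 7 were negative, with a median of -1.25 and none called. Their sums were 41583 to 263324, against 231646 to 351562 in the marked and 69226 to 202482 in the unmarked C57BL/6 libraries. The part of these differences in the levels of the transport genes was not tested.

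Slc9a3r1 encodes a scaffold that ties transporters to ezrin in apical microvilli. Its normalized counts were 5656, 6470 and 4235 in the Mertk-/-V2Tyro3-/-V2 libraries, 11745, 13499 and 10850 in the marked C57BL/6 libraries and 10649, 7457 and 8436 in the unmarked ones. The 3 mutant libraries lay below all 6 C57BL/6 libraries, as did those of 2.36% of all genes tested, while for 3.47% of all genes and none of the 33 they lay above. The log2 fold change was -1.16 ± 0.17 (SE; 95% interval -1.53 to -0.78), a level 2.23-fold lower (limma adjusted p = 0.0268). The call was close to the threshold. It was lost without C57BL/6 replicate 1 (adjusted p = 0.119), replicate 2 (0.156), replicate 3 (0.0754) or replicate 6 (0.0609), and without Mertk-/-V2Tyro3-/-V2 replicate 1 (0.0752), although its log2 fold change stayed below 0 in each. It was also lost without the term for the mark, which brings in the unmarked C57BL/6 libraries (log2 fold change -0.93, limma adjusted p = 0.0773), and without both C57BL/6 replicate 1 and Mertk-/-V2Tyro3-/-V2 replicate 3 (adjusted p = 0.16). For the same gene edgeR on the recovered reads gave an adjusted p of 0.0235 and DESeq2 one of 3.49e-07.

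Slc22a8 and Slc13a3 came next among the genes whose groups did not overlap. Slc22a8, an organic anion transporter, had 3780, 4989 and 3389 normalized counts in the Mertk-/-V2Tyro3-/-V2 libraries, 7087, 8271 and 7225 in the marked and 6838, 6124 and 6967 in the unmarked C57BL/6 libraries. All 3 mutant libraries were below all 6 controls, with a log2 fold change of -0.91 ± 0.19 (SE; adjusted p = 0.0632, limma). Slc13a3, a sodium-coupled carrier of citric acid cycle dicarboxylates, had 2034, 2382 and 1637 in the mutant, 3534, 4067 and 3437 in the marked and 3898, 2760 and 3218 in the unmarked C57BL/6 libraries. Again the groups did not overlap, and the log2 fold change was -0.88 ± 0.19 (SE; adjusted p = 0.0687, limma). Neither passed the threshold. Atp1b1, with 12203, 16291 and 13170 against 16513 to 18715 in C57BL/6, was the only other gene of the 33 without overlap, at a smaller log2 fold change of -0.33 (limma adjusted p = 0.209).

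The windows around the starts of these genes are printed because Slc9a3r1, Slc22a8 and Slc13a3 had the largest differences among the genes without overlap, although only Slc9a3r1 passed the threshold. They hold 250 bases before and 50 bases from the annotated start, 5′ to 3′ on the gene's strand, from RefSeq on GRCm38.p6. Capitals mark CACGTG, the E-box bound by the MITF family, which drives many RPE genes, and Slc16a1 is shown as the other gene of the list with this motif. Slc9a3r1 is at chr11:115163091-115163390 (plus strand), Slc22a8 at chr19:8592932-8593231 (plus strand), Slc13a3 at chr2:165473148-165473447 (minus strand) and Slc16a1 at chr3:104638414-104638713 (plus strand).
Slc9a3r1: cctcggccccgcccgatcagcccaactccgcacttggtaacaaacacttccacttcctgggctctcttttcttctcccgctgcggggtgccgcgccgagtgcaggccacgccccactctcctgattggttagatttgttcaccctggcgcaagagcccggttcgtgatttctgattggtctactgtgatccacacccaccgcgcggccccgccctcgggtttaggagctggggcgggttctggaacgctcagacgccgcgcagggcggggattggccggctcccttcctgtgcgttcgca
Slc22a8: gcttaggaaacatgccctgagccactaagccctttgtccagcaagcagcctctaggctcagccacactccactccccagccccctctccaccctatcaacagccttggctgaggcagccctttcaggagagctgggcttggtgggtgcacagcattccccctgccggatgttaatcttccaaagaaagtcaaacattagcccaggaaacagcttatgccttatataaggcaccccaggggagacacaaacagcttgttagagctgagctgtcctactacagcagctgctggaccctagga
Slc13a3: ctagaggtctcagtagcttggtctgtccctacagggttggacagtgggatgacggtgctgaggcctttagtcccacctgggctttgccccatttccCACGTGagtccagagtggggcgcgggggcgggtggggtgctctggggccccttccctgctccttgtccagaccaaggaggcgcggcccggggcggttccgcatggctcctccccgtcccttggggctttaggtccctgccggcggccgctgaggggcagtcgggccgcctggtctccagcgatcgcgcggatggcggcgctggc
Slc16a1: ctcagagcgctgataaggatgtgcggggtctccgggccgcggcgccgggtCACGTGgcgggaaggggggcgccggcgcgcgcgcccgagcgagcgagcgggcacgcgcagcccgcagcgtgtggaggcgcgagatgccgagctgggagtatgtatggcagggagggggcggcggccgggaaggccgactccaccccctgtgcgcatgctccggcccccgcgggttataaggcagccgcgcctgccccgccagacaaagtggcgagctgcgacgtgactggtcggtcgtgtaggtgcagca
The E-box began at position -154 from the start in Slc13a3 and at -200 in Slc16a1, and these letters were not in the Slc9a3r1 and Slc22a8 windows. RefSeq windows were matched for 26 of the 33 genes, 32 windows in all because some genes have several starts. The E-box, which reads the same on both strands, was in 6.25% of those windows and in 7.15% of all 32851 windows. The M-box core CATGTG, read on both strands a different word from the E-box, was in 6.25% of them (Kcnj13 and Slc6a13) against 14.2% of all windows. GGATTA, the core bound by OTX factors, read on both strands, was in 12.5% (Best1, Car14, Slc39a12 and Slc6a13) against 7.06%. Such matches are descriptions of letters, not of binding.

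Among the other nutrient carriers the most abundant gene, Ttr, stood at 116756, 160861 and 105481 normalized counts in the Mertk-/-V2Tyro3-/-V2 libraries, 213822, 277480 and 229057 in the marked and 213445, 151508 and 180818 in the unmarked C57BL/6 libraries. It was below every marked library, while replicate 2 overlapped the unmarked ones, with a log2 fold change of -0.93 ± 0.20 (SE; adjusted p = 0.0723, limma). Slc2a1 had 23548, 32179 and 23474, against 32519, 34464 and 35059 in the marked and 34463, 28902 and 33749 in the unmarked C57BL/6 libraries. Replicate 2 was below every marked library and within the unmarked range (log2 fold change -0.38, limma adjusted p = 0.203). Slc6a13, a GABA and taurine transporter, Slc6a20a, an imino acid transporter, and Slc39a12, a zinc importer, had log2 fold changes of -0.52, -0.49 and -0.43, with adjusted p of 0.139, 0.226 and 0.203. Slc6a6, the main taurine transporter, was the exception among the 8, at 0.18 (95% interval -0.16 to 0.52, limma adjusted p = 0.474).

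The lactate genes formed a similar picture. Bsg had 44124, 55204 and 43623 normalized counts in the Mertk-/-V2Tyro3-/-V2 libraries, 63568, 78504 and 67025 in the marked and 63393, 50398 and 59117 in the unmarked C57BL/6 libraries. Replicate 2 overlapped the unmarked libraries, and the log2 fold change was -0.55 ± 0.15 (SE; adjusted p = 0.104, limma). Slc16a8 had a log2 fold change of -0.82 (adjusted p = 0.0836). Slc16a1, the lactate transporter of the apical face in the RPE, had one of -0.72 (adjusted p = 0.0778). Slc16a3, a lactate transporter of cells with high glycolysis, went the other way at 1.18 (adjusted p = 0.2), and is described with Kcnj10 and Car2.

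Of the carbonic anhydrases, which interconvert carbon dioxide and bicarbonate, the surface enzymes Car12 and Car14 were lower and the cytosolic Car2 higher in the Mertk-/-V2Tyro3-/-V2 libraries, none past the threshold. Car14 had 9319, 12973 and 8898 normalized counts, against 13830, 17921 and 15002 in the marked and 14621, 12752 and 14535 in the unmarked C57BL/6 libraries. Replicate 2 overlapped the unmarked libraries by a small margin (log2 fold change -0.60 ± 0.17 SE, limma adjusted p = 0.116). Car12 was at -0.74 (adjusted p = 0.0801). Slc4a2 had 8444, 11309 and 7106 against 12332, 15675 and 13635 in the marked and 11030, 9156 and 10588 in the unmarked libraries (log2 fold change -0.65 ± 0.17 SE, limma adjusted p = 0.102). The sodium-bicarbonate cotransporter Slc4a4 leaned the other way at 0.54 (95% interval 0.00 to 1.08, adjusted p = 0.227), and the anion transporter Slc26a7 stood at 0.17 (-0.24 to 0.57). Slc12a2, the sodium-potassium-chloride cotransporter, stood at -0.30 and Slc4a3, a further chloride-bicarbonate exchanger, at 0.49, both with intervals that include 0.

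Among the channels, Kcnj13 had 1710, 2220 and 1810 normalized counts in the Mertk-/-V2Tyro3-/-V2 libraries, 2470, 3037 and 2560 in the marked and 2616, 2128 and 2458 in the unmarked C57BL/6 libraries. Replicate 2 lay within the unmarked range, and the log2 fold change was -0.49 ± 0.16 (SE; adjusted p = 0.147, limma). Exons of Gigyf2 on the opposite strand cover 49.1% of the exon bases of Kcnj13, and without knowledge of strand in the counting the reads of the 2 genes cannot be told apart. Opposite-strand exons also cover 18.7% of Atp1b1 (Nme7), 17.5% of Car14 (Aph1a), 13.8% of Slc6a20a (Gm17120) and 13.7% of Slc4a2 (Fastk). Clcn2, a chloride channel without which photoreceptors degenerate in mice, stood at -0.70 (adjusted p = 0.0893). Aqp1, a water channel, stood at 0.69 (adjusted p = 0.161), Cacna1d, a voltage-gated calcium channel subunit, at 0.41 and Best1 at 0.18 (95% interval -0.41 to 0.76). The second pump subunit, Atp1b2, stood at 0.28 (-0.22 to 0.78).

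Of the remaining junction and microvillus genes, Ezr had 17524, 20812 and 15314 normalized counts in the Mertk-/-V2Tyro3-/-V2 libraries, 23489, 26166 and 23599 in the marked and 21648, 17508 and 19117 in the unmarked C57BL/6 libraries. It was below every marked library and overlapped the unmarked ones (log2 fold change -0.46 ± 0.14 SE, limma adjusted p = 0.128). The tight junction genes differed less. Cldn1 stood at -0.21 (95% interval -0.64 to 0.22), Cldn19, a claudin of the RPE barrier, at 0.32 (-0.10 to 0.73) and Tjp1, the scaffold of tight junctions, at -0.11 (-0.47 to 0.25).

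**Figure D2:**
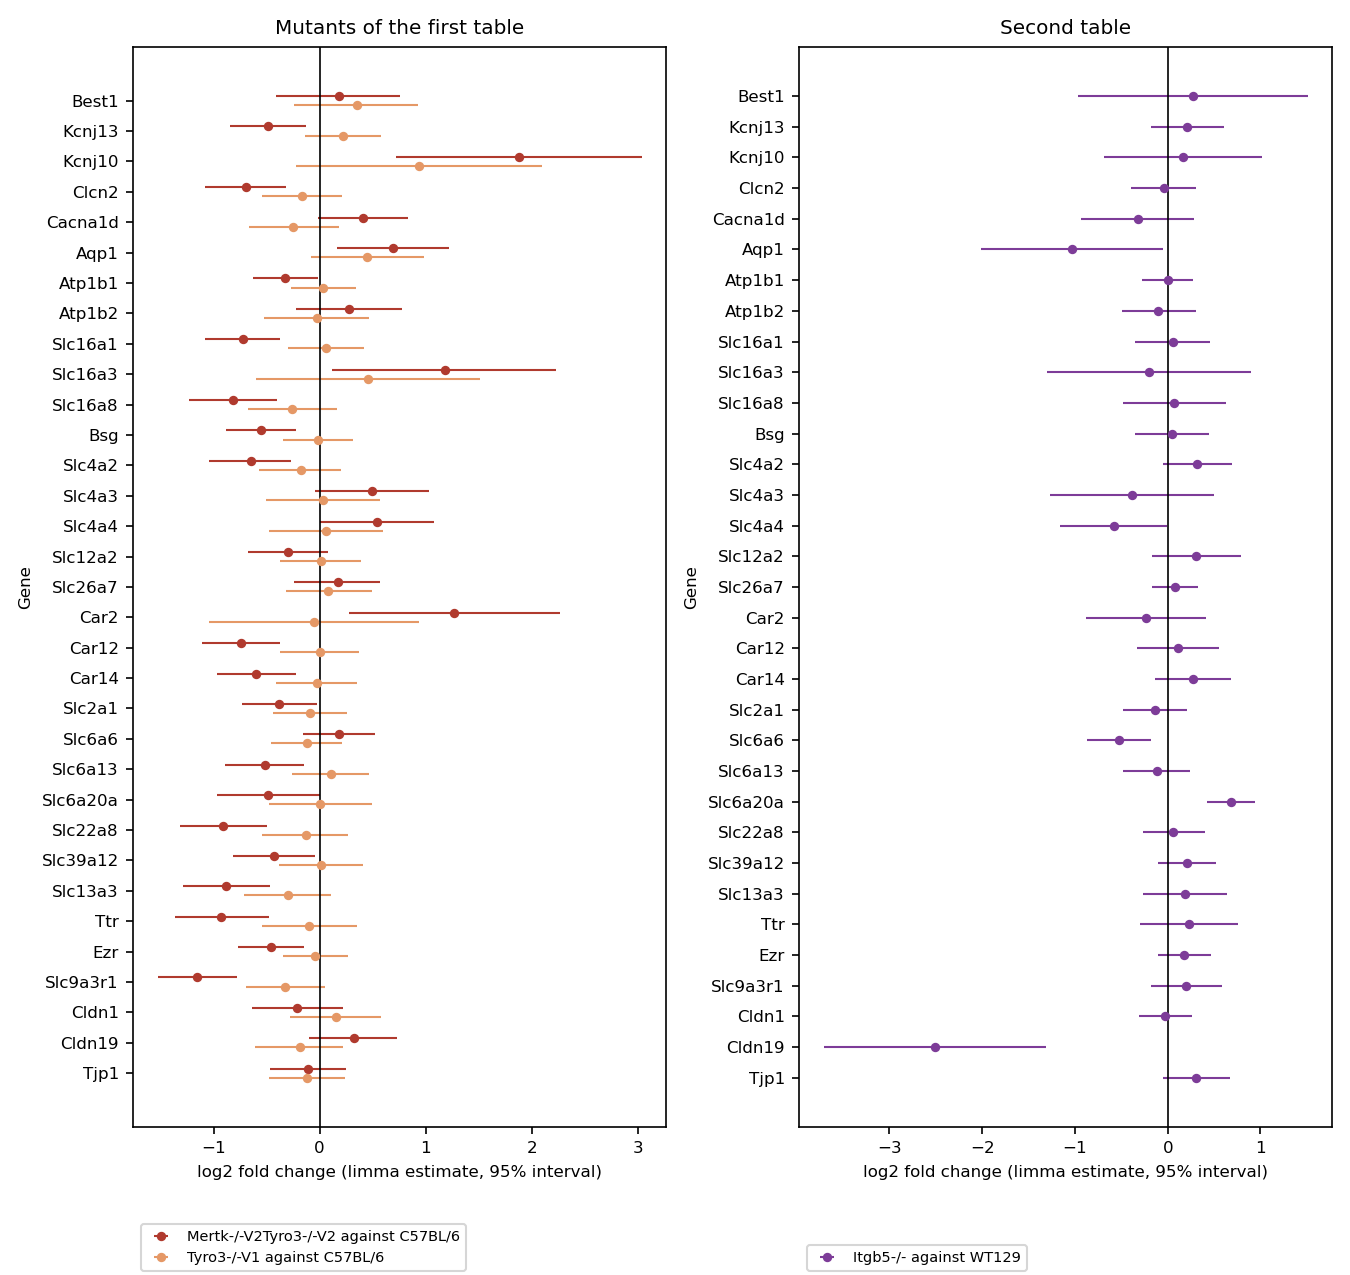
Log2 fold change of each of the 33 genes, ordered by role, for Mertk-/-V2Tyro3-/-V2 and for Tyro3-/-V1 against C57BL/6 (left) and Itgb5-/- against WT129 (right), with 95% intervals from limma; the vertical line at 0 marks no difference. Slc9a3r1 in Mertk-/-V2Tyro3-/-V2 against C57BL/6, at -1.16, is the 1 value shown that passed the adjusted threshold.

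**Figure D3:**
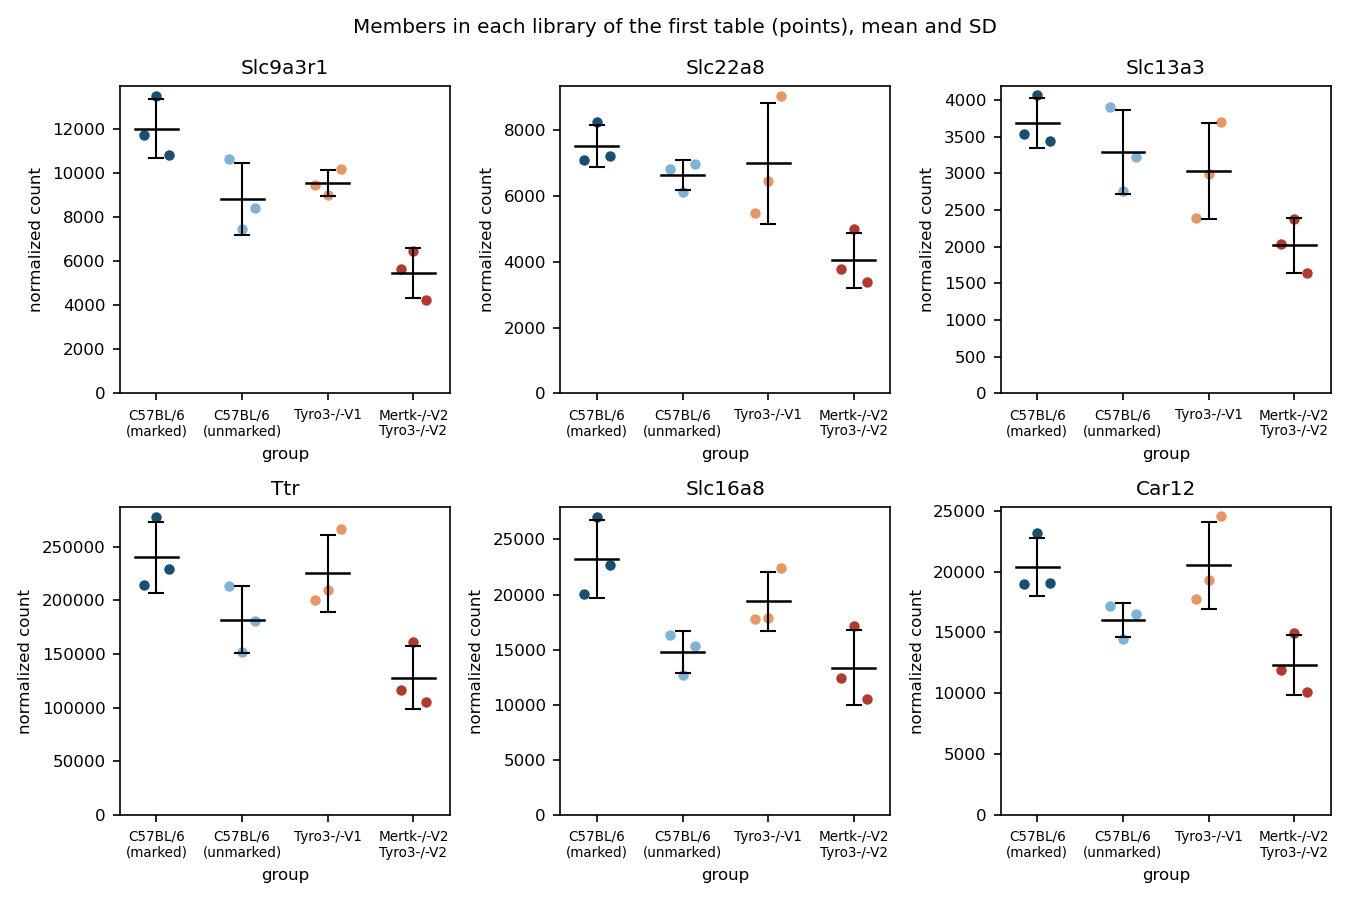
Normalized counts per library (points) with mean and SD (bars) for 6 genes of lower level in Mertk-/-V2Tyro3-/-V2 libraries, beside the marked and unmarked C57BL/6 and the Tyro3-/-V1 libraries. Slc9a3r1, Slc22a8 and Slc13a3 lie below all 6 C57BL/6 libraries, while Ttr, Slc16a8 and Car12 overlap the unmarked ones.

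Of the genes with higher levels in the Mertk-/-V2Tyro3-/-V2 libraries, Kcnj10, Car2 and Slc16a3 were highest in replicate 3. So were Cacna1d, Slc4a3, Atp1b2 and Slc6a6, at smaller log2 fold changes. Aqp1 (3548, 4037 and 3083 normalized counts), Slc4a4 (6242, 8558 and 5810), Slc26a7, Cldn19 and Best1 were lowest there. Kcnj10, an inward rectifier potassium channel that is also the main potassium channel of Müller glia, had 160, 221 and 727 normalized counts there, 54.1, 122 and 76.8 in the marked and 265, 503 and 344 in the unmarked C57BL/6 libraries. Replicate 3 was above every control, replicates 1 and 2 only above the marked ones, and the log2 fold change was 1.88 ± 0.52 (SE; adjusted p = 0.111, limma). Car2 had 1314, 1262 and 4343, against 587, 905 and 958 in the marked and 1314, 2532 and 1945 in the unmarked libraries. Replicate 3 again stood above all other libraries of the table, with a log2 fold change of 1.27 ± 0.45 (SE; adjusted p = 0.165, limma). Slc16a3 was highest in the same library, with 581 in replicate 3 and 164 and 190 in replicates 1 and 2. Without replicate 3 the log2 fold changes were smaller, at 1.23 for Kcnj10, 0.69 for Car2 and 0.61 for Slc16a3 (limma adjusted p = 0.26, 0.401 and 0.542). The summed level of the 8 rod markers was 229222 in replicate 3, 97205 and 80209 in replicates 1 and 2, 29534 to 109051 in the marked and 120577 to 312958 in the unmarked C57BL/6 libraries. All 8 rod markers, all 8 inner retinal neuron markers and 6 of 8 Müller glia markers had positive log2 fold changes, with medians of 0.90, 1.54 and 0.80 and none called. Replicate 3 also had the highest lens sum of the mutant libraries, at 696603, and the lowest ocular surface sum, at 41583. No marker of these lists was at 0 in any library of the first table. In the second table, Car2 (3045) and Slc16a3 (369) were highest in WT129 replicate 2, which had the highest rod sum (408629). Kcnj10 had 1670 there and was highest, at 4136, in Itgb5-/- replicate 1, which had the lowest rod sum (55923). The part of these marker lists in the levels of Kcnj10, Car2 and Slc16a3 was not tested.

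**Figure D4:**
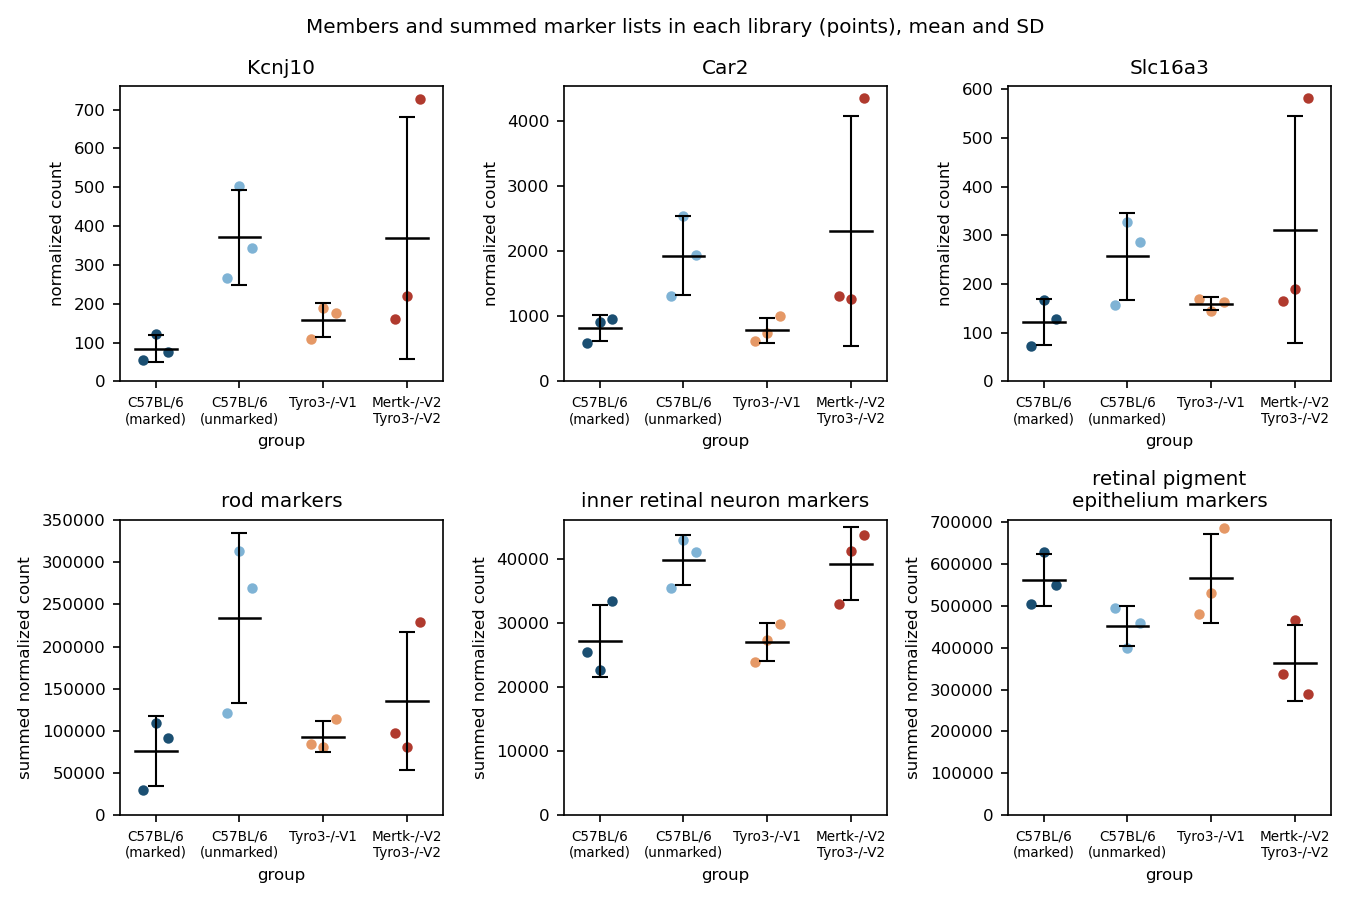
Normalized counts per library of the first table for Kcnj10, Car2 and Slc16a3 (top) and summed normalized counts of the rod, inner retinal neuron and RPE marker lists (bottom); points are libraries, and bars are mean and SD. Mertk-/-V2Tyro3-/-V2 replicate 3 has the highest Kcnj10 (727) and Car2 (4343) of the 12 libraries and a rod sum of 229222, which lies within the unmarked C57BL/6 range.

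The Tyro3-/-V1 libraries were compared with C57BL/6 to ask the same question of Tyro3 alone. None of the 33 genes passed the threshold, which 0.0457% of all genes tested did, and none had an unadjusted p under 0.05, where 4.32% of all genes were higher and 2.38% lower. Nor did the groups separate for any of the 33, where 2.59% of all genes lay above and 1.46% below all C57BL/6 libraries. edgeR and DESeq2 called none of the 33 either, where DESeq2 called 0.721% of all genes that it tested. The median log2 fold change was -0.02 (0.00 for all genes tested), and the single values ran from -0.33 for Slc9a3r1 to 0.94 for Kcnj10. Slc9a3r1 had 9474, 9025 and 10192 normalized counts in the Tyro3-/-V1 libraries, all within the unmarked C57BL/6 range and all below the 3 marked libraries (95% interval of the log2 fold change -0.70 to 0.05). Without Mertk-/-V2Tyro3-/-V2 replicate 3, which enters only the estimate of the spread, its unadjusted p in the limma fit was 0.0396 and its adjusted p 0.635. Ttr had 199916, 209427 and 266015 (-0.10, -0.54 to 0.35), Bsg 63964, 63808 and 78940 (-0.02, -0.35 to 0.31), and Ezr 21966, 22230 and 27409 (-0.04, -0.35 to 0.27). The 3 genes lay inside the range of the C57BL/6 libraries, apart from the highest library of Bsg and Ezr, just above it.

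The Mertk-/-V2Tyro3-/-V2 libraries were next set against the Tyro3-/-V1 libraries, which carry the mark as well. No gene of the 33 passed the threshold, which 0.137% of all genes tested did, while 17 were lower and 3 higher at an unadjusted p under 0.05 (5.55% and 8.23% of all genes tested). Without Mertk-/-V2Tyro3-/-V2 replicate 3 these counts were 11 and 3, where 3% and 3.97% of all genes tested were lower and higher. edgeR called none of the 33, and DESeq2 called 8 lower and 1 higher (4.26% of all genes that it tested). The groups of 3 did not overlap for 13 lower and 4 higher genes, where 7.22% and 10.9% of all genes did not. The median log2 fold change was -0.36 (-0.01 for all genes tested). Slc9a3r1 stood at -0.83 ± 0.17 (SE; adjusted p = 0.122, limma), Ttr at -0.83 ± 0.20 (adjusted p = 0.16), Slc16a1 at -0.78 (0.123) and Slc22a8 at -0.77 (0.159). For each of the 4 all mutant libraries lay below all Tyro3-/-V1 libraries. Car2, at 623, 736 and 998 in Tyro3-/-V1, was higher in the Mertk-/-V2Tyro3-/-V2 libraries at 1.32 ± 0.45 (SE; adjusted p = 0.276), again without overlap, and at 0.74 without replicate 3. This comparison and that with C57BL/6 share the Mertk-/-V2Tyro3-/-V2 libraries, so their values are not independent of each other. RPE markers had a median of -0.46 with 1 of 10 called lower, and inner retinal neuron markers one of 1.32 with none of 8 called.

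Control libraries of 1 genotype also differed in these genes. Between unmarked and marked C57BL/6 libraries none of the 33 passed the threshold, which 0.167% of all genes tested did, but 6 were higher and 4 lower without the mark at an unadjusted p under 0.05 (14% and 9.98% of all genes tested). edgeR called none of the 33, and DESeq2 called Kcnj10 and Slc16a8 (4.81% of all genes that it tested). The groups did not overlap for 6 higher and 13 lower genes (17.3% and 17.9% of all genes tested). Kcnj10 had the widest gap, 2.15 ± 0.52 on the log2 scale (SE; adjusted p = 0.139, limma), and Car2 followed at 1.22 ± 0.45 (adjusted p = 0.169), with the unmarked libraries higher in both. Slc9a3r1 was at -0.45 and Slc16a8 at -0.65, lower without the mark. The summed RPE markers were lower and the summed rod markers higher in every unmarked library than in every marked one, and their part in these differences was not tested.

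The Itgb5-/- libraries were compared with WT129, within the second table. None of the 33 genes passed the threshold, which 0.0375% of all genes tested did. At an unadjusted p under 0.05, 1 was higher and 4 were lower (3.31% and 4.97% of all genes tested), and the groups did not overlap for 3 higher and 3 lower genes (7.67% and 7.68%). The median log2 fold change was 0.06, against 0.04 for all genes tested. edgeR called none of the 33, and DESeq2 called Slc6a6, Slc6a20a and Cldn19 (2.3% of all genes that it tested).

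Cldn19 had 160, 298 and 415 normalized counts in the WT129 libraries and 92.8, 39 and 27.6 in the Itgb5-/- libraries. The groups did not overlap, and the log2 fold change of -2.51 ± 0.51 (SE; 95% interval -3.71 to -1.31) was the largest of the 33 in this comparison, at a limma adjusted p of 0.304. Aqp1 had 595, 2127 and 801 in WT129 and 499, 455 and 522 in Itgb5-/- libraries. The mutant values were tight and lower, and the log2 fold change of -1.03 ± 0.42 (SE; adjusted p = 0.588, limma) was -0.49 without WT129 replicate 2. All 8 rod markers were lower without overlap in the Itgb5-/- libraries, with a median log2 fold change of -1.53 and none called, and their sum was 55923 to 115384 against 172751 to 408629 in WT129. Their part in the levels of Cldn19 and Aqp1 was not tested.

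Library values are also given for 2 more of the 33, Slc6a20a and Slc6a6, because they had the smallest unadjusted p-values among the nutrient carriers, a choice made after their values were seen. Slc6a20a had 10275, 9749 and 9514 normalized counts in WT129 and 16209, 15993 and 15047 in Itgb5-/- libraries, a tight and separate pair of groups (log2 fold change 0.68 ± 0.11 SE, 95% interval 0.42 to 0.94, limma adjusted p = 0.232). Slc6a20a has a near copy, Slc6a20b, and how reads shared by the copies were counted is not given in the sources used here. Slc6a6 had 18559, 23880 and 24347 in WT129 and 16372, 14704 and 15074 in Itgb5-/- libraries, also without overlap (-0.52 ± 0.15 SE, adjusted p = 0.403). The genes that were lowest in the Mertk-/-V2Tyro3-/-V2 libraries were near the control here: Slc9a3r1 stood at 0.20 (95% interval -0.18 to 0.58), Slc22a8 at 0.06 (-0.27 to 0.40), Slc13a3 at 0.19 (-0.27 to 0.64) and Ttr at 0.23 (-0.30 to 0.76). Whether these effects differ between the 2 tables was not tested, since the tables were normalized separately.

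**Figure D5:**
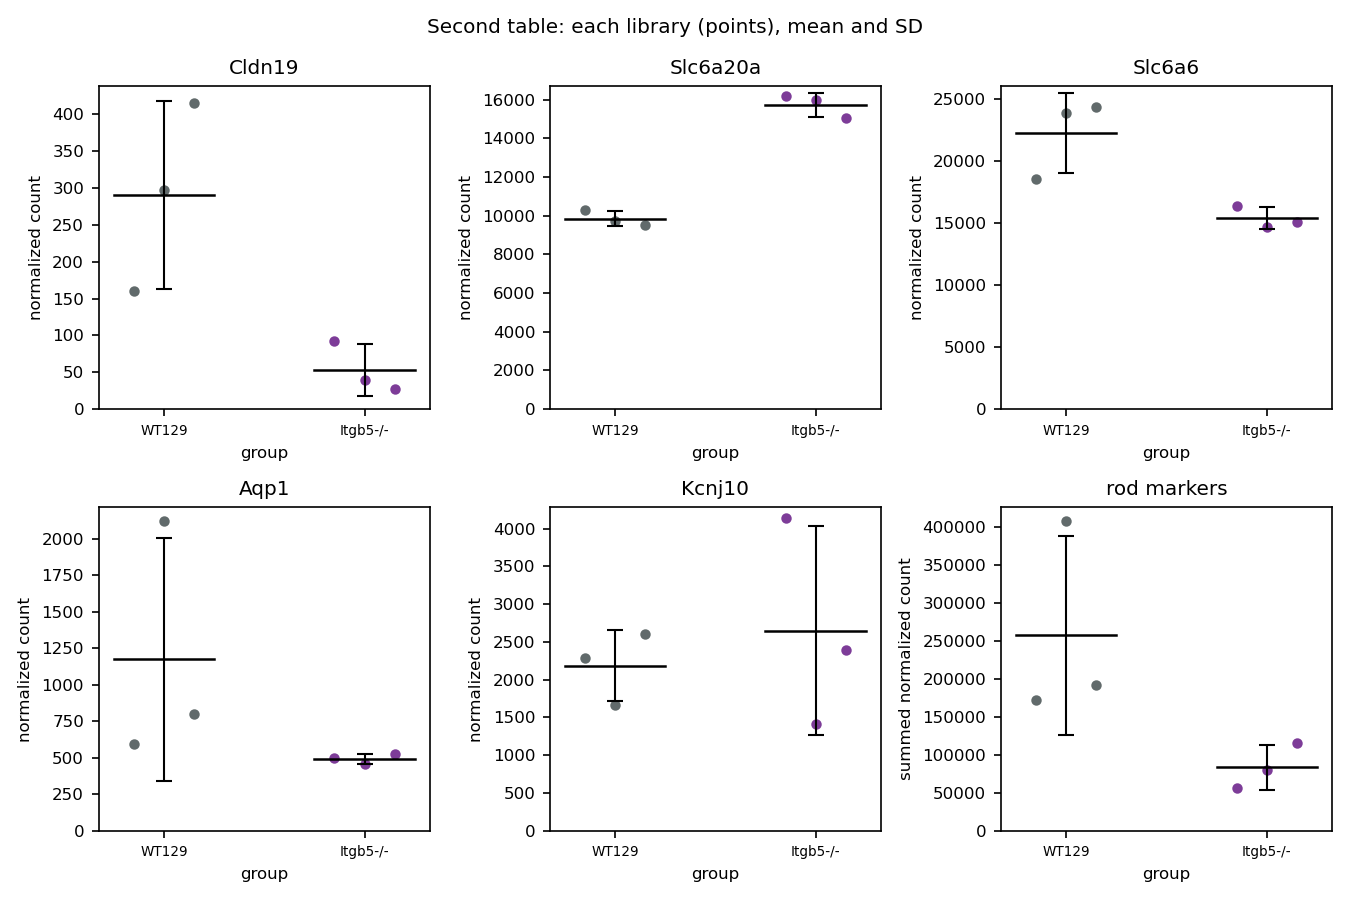
Normalized counts per library (points) with mean and SD (bars) in WT129 and Itgb5-/- for 5 of the 33 genes and, in the last panel, the summed normalized counts of 8 rod markers. Cldn19, Slc6a6 and Aqp1 are lower and Slc6a20a is higher without overlap in the Itgb5-/- libraries, none past the adjusted threshold, and Kcnj10 overlaps.

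The libraries of a group did not vary alike in these genes. Mertk-/-V2Tyro3-/-V2 replicate 3 was the lowest of the 3 for 23 of the 33 (69.7%; 39.1% of all genes tested) and replicate 2 the highest for 23 (69.7%; 29.8%). Tyro3-/-V1 replicate 3 was the highest of its group for 27 (81.8%; 46.8%), and Itgb5-/- replicate 1 for 25 (75.8%; 37.9%). The summed RPE markers were highest in the same library of each of these 3 groups, 465453 in Mertk-/-V2Tyro3-/-V2 replicate 2, 685587 in Tyro3-/-V1 replicate 3 and 413784 in Itgb5-/- replicate 1. The median coefficient of variation of the 33 was 20.6% in the Mertk-/-V2Tyro3-/-V2, 17.3% in the Tyro3-/-V1 and 12.1% in the marked C57BL/6 libraries, near the 18.6%, 17.5% and 12.4% of all genes tested. It was 6.81% in the Itgb5-/- libraries, where all genes had 12.9%, and 11.8% in the unmarked C57BL/6 libraries, where all genes had 16.4%. In the WT129 libraries it was 20.2%, against 21.7% for all genes.

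Levels in the C57BL/6 and WT129 libraries can be set side by side without a test, since the tables were normalized separately. Kcnj10 had 54.1 to 503 normalized counts in C57BL/6 and 1670 to 2598 in WT129. Cldn19 had 709 to 1769 and 160 to 415, and Atp1b1 16513 to 18715 and 10548 to 12162, so that the ranges of all 3 genes were separate. The ranges of Aqp1, at 1773 to 3275 and 595 to 2127, and of Tjp1, at 3485 to 5531 and 3520 to 5114, overlapped. These genes are examples. Other genes of the 33 had separate ranges as well, among them Kcnj13 (2128 to 3037 and 3814 to 5678) and Bsg (50398 to 78504 and 34125 to 46310). So had Slc2a1 (28902 to 35059 and 20359 to 26705) and Slc6a6 (32377 to 51393 and 18559 to 24347). Separation is thus not particular to the genes named, and its share over all genes tested was not counted.

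A wider list of 79 other transport and junction genes, of which 78 were tested in each table, gave the surroundings of the 33. None of the 78 passed the limma threshold in any of the 5 comparisons or was called by edgeR, while DESeq2 called 7 in Mertk-/-V2Tyro3-/-V2 against C57BL/6, 5 against Tyro3-/-V1, 5 between the C57BL/6 sets, 2 in Itgb5-/- against WT129 and 0 in Tyro3-/-V1 against C57BL/6. Of all genes that it tested, DESeq2 called 10.4%, 4.26%, 4.81%, 2.3% and 0.721% in these comparisons, in the same order. In Mertk-/-V2Tyro3-/-V2 against C57BL/6, 11 of the 78 were higher and 14 lower at an unadjusted p under 0.05, where 13.2% and 8.74% of all genes were. Their median log2 fold change was 0.00. The other junction genes had a median of -0.34 (5 of 22 lower at an unadjusted p under 0.05) and the other nutrient carriers one of 0.17 (7 of 23 higher and 4 lower). In Tyro3-/-V1 against C57BL/6 the 78 had 1 higher and 3 lower (4.32% and 2.38% of all genes), with a median of -0.07. In Itgb5-/- against WT129 they had 1 higher and 5 lower (3.31% and 4.97%), with a median of 0.03. Against Tyro3-/-V1 the Mertk-/-V2Tyro3-/-V2 libraries had 14 higher and 7 lower at the same unadjusted p (8.23% and 5.55% of all genes). The unmarked C57BL/6 libraries had 10 higher and 9 lower than the marked ones (14% and 9.98%).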

How the data were processed

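The authors deposited 2 tables, normalized separately, of a signal per gene that they call normalized counts. Per the submitters' processing notes, STAR and DESeq2 were used with GRCm38 and mm10; versions and strand use in counting are not given in the sources used here. Each value above 0 was a whole number of reads within 0.001 after division by the library's smallest step, so 1 size factor (0.541 to 1.197) had been applied per library. In the second table, 3061 of 3096 lines without a gene name were named from their Ensembl identifier and kept. Lines still without a name, which held up to 0.0203% of a library's total, were dropped.

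Genes that reached 10 normalized counts in 3 or more libraries were tested two-sided with limma 3.58.1 in R 4.3.3 (trend, robust) on log2(value + 1), with terms for group and the mark 23 in the first table (8 residual degrees of freedom) and group in the second (4). A pseudocount understates fold changes of low genes. p was adjusted by Benjamini-Hochberg over all genes, threshold 0.05. Alternatives were 2 count tests on the recovered reads (edgeR 4.0.16; DESeq2 1.42.0), other scalings, filters, pseudocounts and samples; the scripts were tested on simulated data. The members and lists were chosen with earlier results of these data known. Values in every library are given for genes past the threshold, for genes whose groups do not overlap at a log2 fold change of at least 0.8 in size, and for the highest gene per kilobase in each role; the mean per kilobase uses summed exon length.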

Additional observations from a re-analysis of the deposited data

How the results depend on the processing

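In Mertk-/-V2Tyro3-/-V2 against C57BL/6 the number of the 33 genes past the threshold was 1 in limma as reported, 2 with no filter on low values (Slc22a8 joins Slc9a3r1), 15 with DESeq2, and 0 with only the groups compared, with no term for the mark, with only the libraries with the mark, and without both C57BL/6 replicate 1 and Mertk-/-V2Tyro3-/-V2 replicate 3. Leaving out 1 library at a time gave 0 to 7. Over all genes tested in this comparison, 103 passed as reported. That number ran from 11 to 1725 over the other settings, the replicate block among them, and from 0 to 142 with 1 library left out. DESeq2 also called 9 of the 33 in Mertk-/-V2Tyro3-/-V2 against Tyro3-/-V1, 3 in Itgb5-/- against WT129 and 2 between the C57BL/6 sets, where limma called 0. The cause of these differences was not tested. The smaller sets of libraries leave fewer samples, and the part of that was not tested either. No log2 fold change of a gene named for its size changed sign under any alternative run. The median of the 33 in Mertk-/-V2Tyro3-/-V2 against C57BL/6 stayed between -0.53 and -0.30 when 1 library was left out, and was -0.21 after quantile normalization. That scaling also moved the split of the 33 into lower and higher from 17 and 16 to 12 and 21 in Tyro3-/-V1 against C57BL/6, and from 21 and 12 to 15 and 18 between the C57BL/6 sets. Same-numbered libraries did not deviate together in every pair. In order of replicate, the correlations were 0.48, -0.21 and 0.28 between marked C57BL/6 and Mertk-/-V2Tyro3-/-V2. They were 0.31, -0.17 and 0.35 between marked C57BL/6 and Tyro3-/-V1, and 0.56, 0.06 and 0.52 between Mertk-/-V2Tyro3-/-V2 and Tyro3-/-V1. Between WT129 and Itgb5-/- they were -0.12, -0.08 and 0.03. These values do not settle whether the numbers pair samples in the first table. With the replicate block, 2 of the 33 passed in Mertk-/-V2Tyro3-/-V2 against C57BL/6 (Slc13a3 joins Slc9a3r1) and 0 in the other comparisons. Depth limits Best1 most, with 22 to 42.6 normalized counts in C57BL/6.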
